A study of Mus musculus with 9 samples.

Results

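The IFI200 genes and Aim2 form a family of interferon-inducible, DNA-binding immune genes that lie side by side on mouse chromosome 1. The members described here were the rows of the deposited gene table that carry the symbols Aim2, Ifi203, Ifi204, Ifi205, Ifi207, Ifi209, Ifi211, Mnda and Mndal. Rows were found for 8 of these 9 symbols and none for Mnda, so 8 of 51826 genes in the table are members, and all 8 were among the 14458 genes with enough counts to be tested. They were measured by RNA sequencing in RAW 264.7 cells, a mouse macrophage line, with 3 cultures per group that the labels call biological replicates. In the calycosin + LPS group, cells were exposed to calycosin, an isoflavone of Astragalus root, at 100 µg/mL for 24 h and then to lipopolysaccharide (LPS), a bacterial cell wall component sensed by TLR4, at 300 ng/mL for 6 h. The LPS group received the same LPS exposure without calycosin, and the vehicle group received solvent only. All groups are the same cell line, and none of them received calycosin alone, so calycosin could be compared only in LPS-exposed cells.

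Many proteins of this family join a pyrin domain, which pairs with other pyrin domains, to a HIN domain, which binds DNA. AIM2 binds DNA in the cytosol and, through the adaptor ASC (gene Pycard), recruits caspase-1, which matures interleukin-1β and interleukin-18 and cleaves gasdermin D. IFI204 is a mouse relative of human IFI16 and has been linked to signalling through STING, while most of the other members are known as interferon-inducible nuclear proteins whose work is less well defined. In macrophages, LPS induces interferon-β, and signals from the interferon receptor then lead to a factor complex that contains IRF9 and binds interferon-stimulated response elements in promoters.

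On GRCm38, with gene models from GENCODE M21, the cluster ran from chr1:173350879 to chr1:174031810, a span of 680.9 kb with 14 family genes. Aim2 opens it on the plus strand (chr1:173350879-173466040), Ifi209 follows on the plus strand (chr1:173630917-173647928), and Ifi207 (chr1:173723427-173741747) and Ifi204 (chr1:173747293-173766943) lie next to each other on the minus strand. Mndal (chr1:173849126-173942491), Ifi211 (chr1:173896345-173913046) and Ifi203 (chr1:173920407-173942672) share the minus strand and overlap as annotated genes, because the Mndal model spans Ifi211 and reaches into Ifi203, although their exons share 37 bases in all. Ifi205 closes the cluster on the minus strand (chr1:174011998-174031810). The 6 other cluster genes in the table are Ifi202b, the pseudogene Ifi203-ps, Ifi206, Ifi208, Ifi213 and Ifi214. Cadm3, the only other protein-coding gene with a stretch inside the cluster, had 0 counts in all 9 libraries.

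The promoters of the responding genes are shown because several of them carry the same response-element core, some pairs in nearly the same surroundings. RefSeq promoters on GRCm38.p6, from 250 bases before to 50 bases after a gene's start, were available for 7 of the 8 members, all except Ifi204. The core letters GAAANNGAA were found, on either strand, in 5 of these 7 members (Ifi203, Ifi205, Ifi207, Ifi211 and Mndal) and in 4 of 5 other cluster genes with a promoter, against 9.76% of the 27025 genes and 8.56% of the 32851 promoters in the table. Ifi203 and Mndal have 2 promoters each in the table, and 1 of those of Ifi203 had no match. The core began 35, 36, 41 and 37 bases before the start in Ifi203, Mndal, Ifi207 and Ifi211, and 134 bases before it in Ifi205. Matches on the opposite strand lay 24 bases after the start in Ifi205 and 53 bases before the start of the other Mndal promoter. Their windows are not shown. Of the other cluster genes, Ifi206, Ifi208, Ifi213 and Ifi214 held the core, and only Ifi214 is shown, for the comparison with Ifi209. The windows below are written 5′ to 3′ on the strand of the gene, with the core in capitals.
Ifi203 (chr1:173942494-173942552, minus strand): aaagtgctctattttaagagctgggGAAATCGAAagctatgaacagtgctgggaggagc
Mndal (chr1:173880190-173880248, minus strand): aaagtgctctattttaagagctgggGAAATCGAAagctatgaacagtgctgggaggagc
Ifi207 (chr1:173741817-173741875, minus strand): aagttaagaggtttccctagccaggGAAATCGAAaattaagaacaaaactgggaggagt
Ifi205 (chr1:174031856-174031914, minus strand): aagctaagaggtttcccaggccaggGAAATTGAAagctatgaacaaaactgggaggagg
Ifi211 (chr1:173913050-173913108, minus strand): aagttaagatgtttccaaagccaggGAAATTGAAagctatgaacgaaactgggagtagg
Ifi214 (chr1:173536003-173536061, minus strand): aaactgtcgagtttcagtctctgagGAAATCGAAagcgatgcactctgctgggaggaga
Ifi209 (chr1:173630755-173630813, plus strand): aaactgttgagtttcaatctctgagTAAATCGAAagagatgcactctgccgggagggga

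The Ifi203 and Mndal windows were identical over 59 bases although they lie at different places. The Ifi203 window was less like those of Ifi205 (39 of 59 bases shared), Ifi207 (38) and Ifi211 (40). The Ifi205 and Ifi211 windows shared 53 of 59 bases, and the core of both was GAAATTGAA, which 132 of the 32851 promoters (0.402%) hold. The core of Ifi203, Mndal and Ifi207 was GAAATCGAA, which 30 promoters (0.0913%) hold, among them those of 3 members and 4 other cluster genes. These longer letter strings were read off the members themselves. Ifi209 had no match: the stretch of its promoter most like Ifi214 shared 53 of 59 bases with it and differed by 1 base inside the core, G1T counted from the 5′ end of the core in Ifi214. Aim2 had no match either. The gamma-activated site TTCNNNGAA, searched on both strands, was in 0 of 7 members, against 9.55% of genes and 8.3% of promoters. A loose letter pattern for NF-kappaB sites, with several free positions, was matched in 3 of 7 members, against 53.52% of genes and 50.79% of promoters. A pattern matched this often cannot tell NF-kappaB sites from other sequence, so no conclusion is drawn from its count. These matches describe letters in a window and were not tested for binding.

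Total counts ran from 27784737 to 38524105 per library. Levels are given as CPM (counts after TMM scaling of library size) when 1 gene is followed across groups, and as TPM (scaled for transcript length and depth by the authors) when genes are compared with each other. Libraries stood apart within groups: mitochondrially encoded genes took 21.9% of counts in vehicle replicate 3, against 3.79% and 3.68% in the other vehicle libraries, and 7.45% in calycosin + LPS replicate 2, against 17.2% and 19.4% in the others of that group. The LPS libraries had 13.0% to 14.7%. Of 8 macrophage markers, 7 were above 1 CPM in every library, with summed levels of 3381 to 3963 CPM in calycosin + LPS cells, 4640 to 4831 CPM in LPS cells and 4594 to 5000 CPM in vehicle cells. Of 17 markers of other cell types, 8 had 0 counts everywhere and the rest summed to 1.69 to 2.19 CPM in calycosin + LPS cells, 4.49 to 6.44 CPM in LPS cells and 1.27 to 1.61 CPM in vehicle cells. The part of these marker sums and mitochondrial shares in the results was not tested, apart from the values given below without the libraries that stood apart. In bulk RNA, fewer cells that express a gene and less of its RNA per cell cannot be told apart.

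LPS raised every member of the family. In LPS cells against vehicle cells, 8 of 8 members were higher and 0 lower at an adjusted p below 0.05 (edgeR's quasi-likelihood test, Benjamini-Hochberg over all genes tested), where 27.3% of all genes tested were higher and 28.9% lower. The median log2 fold change of the members was 7.04, against -0.07 for all genes tested. The members differed widely in how silent they were before LPS, and the 6 other cluster genes were all higher as well.

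Aim2, the cytosolic DNA sensor, had the smallest rise of the family and was, with Ifi203, the member with the most CPM at rest. It had 182, 208 and 219 CPM in LPS cells, against 30.0, 29.3 and 56.9 CPM in vehicle cells. The groups did not overlap, and vehicle replicate 3 was the highest of its group. Aim2 was 5.24-fold higher with LPS (log2 fold change 2.39, SE 0.26, adjusted p = 3.72e-05).

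Ifi204, the member linked to STING, had 946, 967 and 1244 CPM in LPS cells, against 2.57, 2.55 and 5.23 CPM in vehicle cells. Every LPS library was far above every vehicle library, and the rise was 308-fold (log2 fold change 8.27, SE 0.37, adjusted p = 9.28e-08). Ifi203, a nuclear member, had 2170, 2222 and 2031 CPM in LPS cells, against 29.1, 27.8 and 57.2 CPM in vehicle cells. Its rise was 56.4-fold (log2 fold change 5.82, SE 0.33, adjusted p = 4.70e-07), and the groups did not overlap.

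Ifi205 was the member with no signal at rest. It had 161, 164 and 185 CPM in LPS cells, against 0 counts in each of the 3 vehicle libraries. Taking the floor of 3 counts per library for vehicle cells, it was at least 2391-fold higher with LPS (adjusted p = 9.75e-08). Ifi209 and Ifi211 were close to silent at rest, with 15, 11 and 27 counts for Ifi209 and 18, 22 and 26 counts for Ifi211 in the vehicle libraries. Ifi209 had 351, 327 and 344 CPM in LPS cells, against 0.301, 0.226 and 0.821 CPM in vehicle cells. Ifi211 had 519, 530.5 and 472 CPM in LPS cells, against 0.361, 0.452 and 0.791 CPM in vehicle cells. Both sets of groups were widely separated, and the rises were 805-fold for Ifi209 (log2 fold change 9.65, SE 0.40, adjusted p = 5.33e-08) and 978-fold for Ifi211 (log2 fold change 9.93, SE 0.36, adjusted p = 2.21e-08).

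Ifi207 and Mndal resembled Ifi203 in the size of their rise. Ifi207 had 891, 902 and 1082 CPM in LPS cells, against 18.5, 17.8 and 25.03 CPM in vehicle cells, a 46.9-fold rise (log2 fold change 5.55, SE 0.24, adjusted p = 7.19e-08). Mndal had 1529, 1474 and 1443 CPM in LPS cells, against 17.5, 21.1 and 50.8 CPM in vehicle cells, a 49.8-fold rise (log2 fold change 5.64, SE 0.44, adjusted p = 4.15e-06). Neither gene had a vehicle library near the LPS range. Vehicle replicate 3 gave the highest vehicle CPM of all 7 members with counts in vehicle cells, and it is also the library with 21.9% mitochondrial counts. Its TMM factor was 1.05, against 1.42 in both other vehicle libraries. In TPM, Ifi207 was lowest there (14.6, 14.1 and 11.7 TPM), and the other members with counts were highest there. The part of scaling in this was not tested. Without vehicle replicate 3 and calycosin + LPS replicate 2, all 8 members were still called higher with LPS. The log2 fold change was then 2.72 for Aim2, 6.21 for Mndal and 10.26 for Ifi209.

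**Figure D1:**
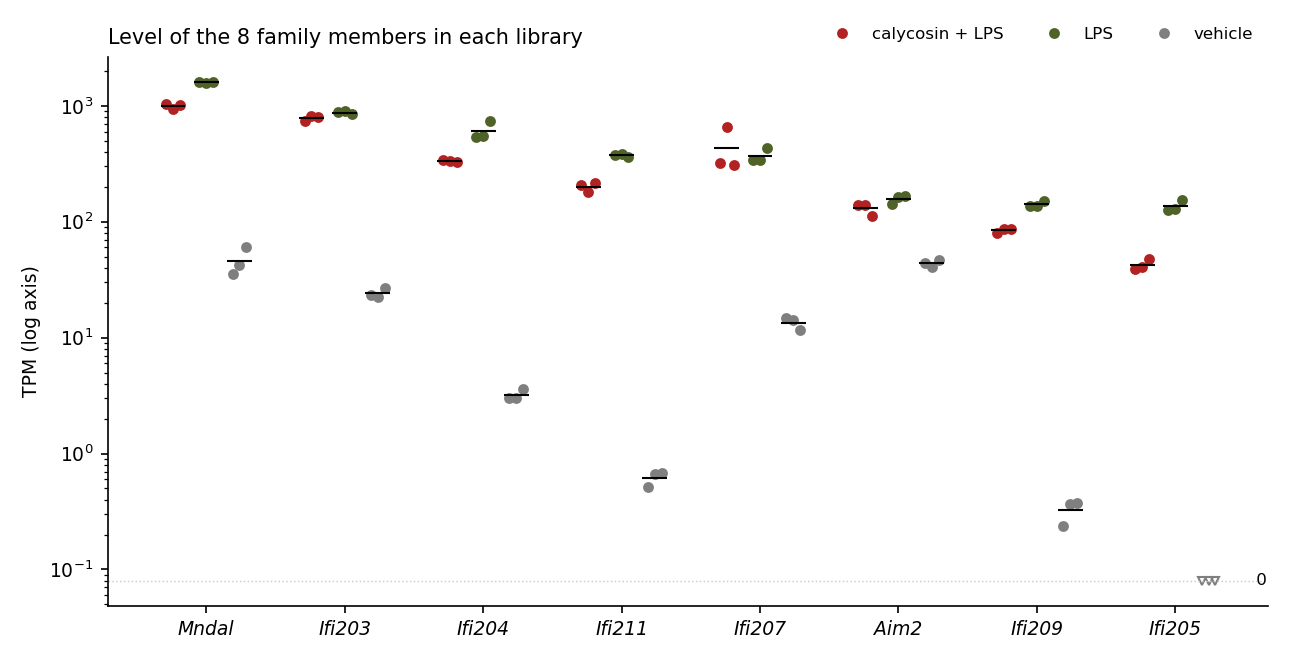
TPM of the 8 members in each library, on a log axis, for calycosin + LPS, LPS and vehicle cells (points: libraries, n = 3 per group; short lines: means; open triangles: a value of 0). Aim2 has the smallest distance between LPS and vehicle cells, Ifi205 lies at 0 in vehicle cells, and 1 calycosin + LPS library of Ifi207 lies above the others.

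Per unit of length, Mndal was the most abundant member in LPS-exposed cells. In calycosin + LPS cells the order of mean TPM was Mndal (992), Ifi203 (783), Ifi207 (429), Ifi204 (334), Ifi211 (201), Aim2 (131), Ifi209 (84.6) and Ifi205 (42.5). In that order only Ifi207 and Ifi204 overlapped among neighbours. In LPS cells it was Mndal (1597), Ifi203 (875), Ifi204 (609), Ifi211 (374), Ifi207 (372), Aim2 (158), Ifi209 (142) and Ifi205 (136), and neighbours overlapped for Ifi211 with Ifi207, Aim2 with Ifi209, and Ifi209 with Ifi205. In vehicle cells Mndal (46.2 TPM) and Aim2 (43.9 TPM) overlapped at the top, above Ifi203 (24.4), Ifi207 (13.5), Ifi204 (3.21), Ifi211 (0.619), Ifi209 (0.325) and Ifi205 (0). Aim2 thus stood among the 2 leading members at rest and in sixth place in both LPS-exposed groups.

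The family's summed TPM showed the same shift in make-up. The sum was 2900, 3184 and 2911 TPM in the calycosin + LPS libraries, 4135, 4188 and 4465 TPM in the LPS libraries, and 122, 124 and 151 TPM in the vehicle libraries. Aim2 held 4.36% ± 0.479 of it in calycosin + LPS cells, 3.71% ± 0.246 in LPS cells and 33.4% ± 2.87 in vehicle cells (SD, n = 3 each). Ifi205 held 1.42% ± 0.189 in calycosin + LPS cells, 3.19% ± 0.221 in LPS cells and 0% in vehicle cells. Ifi203 held 26.1% ± 1.14 in calycosin + LPS cells and 20.6% ± 1.40 in LPS cells. Comparing calycosin + LPS with LPS, the shares of 7 members did not overlap, with an exact two-sided permutation p of 0.1 for each, the smallest that 3 against 3 libraries can give; for Aim2 it was 0.2. Shares of 1 total depend on each other, so these are not separate results.

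**Figure D2:**
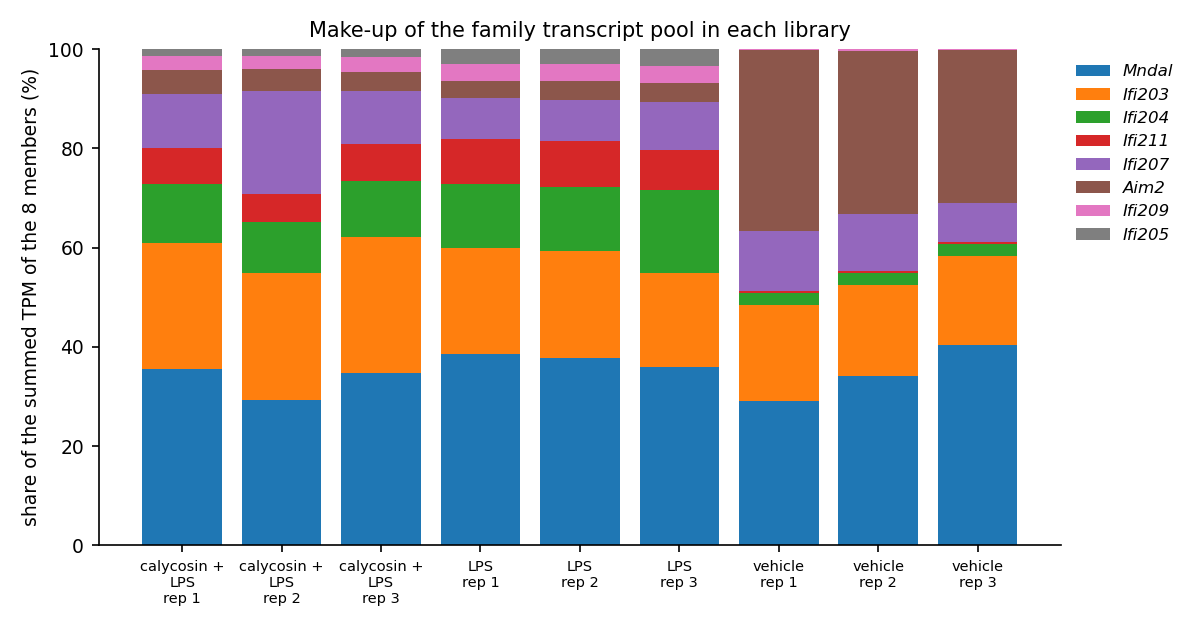
Share of each member in the summed TPM of the 8 members, in percent, for each library (bars from the left: calycosin + LPS, LPS and vehicle, 3 libraries each). Aim2 takes 30.8% to 36.5% of the vehicle bars and under 5% of the LPS-exposed bars, and Ifi207 takes 20.7% in calycosin + LPS replicate 2.

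The comparison of calycosin + LPS with LPS asks what calycosin pretreatment did to the LPS response. No member was higher and 4 of 8 were lower (Ifi205, Ifi211, Ifi204 and Ifi209), where 16.1% of all genes tested were higher and 12.9% lower. The median log2 fold change of the members was -1.03, against 0.02 for all genes tested. All 8 fold changes were below 0, except that for Ifi207 it was above 0 when library totals were used without TMM scaling (log2 0.14) and on the TPM scale (log2 0.12). The count of 4 changed with the libraries in the fit: it was 7 when the 2 groups were fitted without the vehicle libraries, and 8 when vehicle replicate 3 and calycosin + LPS replicate 2, which stood apart, were both left out. Lower calls over all genes rose as well. They were 1871 of 14458 with all 9 libraries, 2391 of 13572 in the fit of 2 groups and 2670 of 14845 without the libraries that stood apart.

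Ifi205 fell most. It had 42.0, 32.3 and 55.6 CPM in calycosin + LPS cells, against 161, 164 and 185 CPM in LPS cells. No calycosin + LPS library came near the LPS range, and the gene was 3.93-fold lower with calycosin (log2 fold change -1.97, SE 0.20, adjusted p = 0.000518).

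Ifi211, Ifi204 and Ifi209 fell by similar amounts. Ifi211 had 238, 154 and 275 CPM in calycosin + LPS cells, against 519, 530.5 and 472 CPM in LPS cells, and was 2.28-fold lower (log2 fold change -1.19, SE 0.24, adjusted p = 0.00506). Ifi204 had 504.5, 361 and 536 CPM in calycosin + LPS cells, against 946, 967 and 1244 CPM in LPS cells, and was 2.25-fold lower (log2 fold change -1.17, SE 0.27, adjusted p = 0.0108). Ifi209 had 162, 132 and 189 CPM in calycosin + LPS cells, against 351, 327 and 344 CPM in LPS cells, and was 2.11-fold lower (log2 fold change -1.08, SE 0.26, adjusted p = 0.0137). In all 3 genes the groups did not overlap, and calycosin + LPS replicate 2 was the lowest library in CPM. In TPM that order held for Ifi211 only (208, 180 and 216 TPM in calycosin + LPS cells). Ifi204 had 343, 331 and 329 TPM and Ifi209 had 80.5, 87.3 and 86.2 TPM. The call on Ifi209 was lost without calycosin + LPS replicate 1 (adjusted p = 0.0508) or replicate 2 (adjusted p = 0.0527), with log2 fold changes of -1.08 and -0.95.

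The other 4 members did not pass the test. Mndal had 802, 524 and 912 CPM in calycosin + LPS cells, against 1529, 1474 and 1443 CPM in LPS cells, without overlap (log2 fold change -0.99, SE 0.37, adjusted p = 0.0685); DESeq2 gave an adjusted p of 0.0168 and the fit of 2 groups 0.00496. Aim2 had 158, 116 and 144 CPM in calycosin + LPS cells, against 182, 208 and 219 CPM in LPS cells (log2 fold change -0.54, SE 0.25, adjusted p = 0.128). Ifi203 had 1527, 1235 and 1812 CPM in calycosin + LPS cells, against 2170, 2222 and 2031 CPM in LPS cells (log2 fold change -0.49, SE 0.27, adjusted p = 0.205). In these 3 genes every calycosin + LPS library was below every LPS library. The share of all genes whose libraries separate in this way was not determined, so no conclusion is drawn from the separation. A missed threshold does not show equal levels either.

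Ifi207 was the only member whose groups overlapped. It had 701, 1079 and 750.1 CPM in calycosin + LPS cells, against 891, 902 and 1082 CPM in LPS cells (log2 fold change -0.18, SE 0.20, adjusted p = 0.520). The high value was in calycosin + LPS replicate 2, the library in which the 7 other members had their lowest CPM of the group. Its TMM factor was 1.11, against 0.942 and 0.896 in the others of the group. In TPM, only Ifi211 and Mndal of those 7 members were lowest there, and Ifi203 was highest (740, 810 and 799). The part of scaling in this contrast was not tested. In TPM, Ifi207 had 319, 660 and 308 in calycosin + LPS cells, against 339, 343 and 433 in LPS cells. With that library and vehicle replicate 3 left out, the log2 fold change of Ifi207 was -0.38 (adjusted p = 0.0191).

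**Figure D3:**
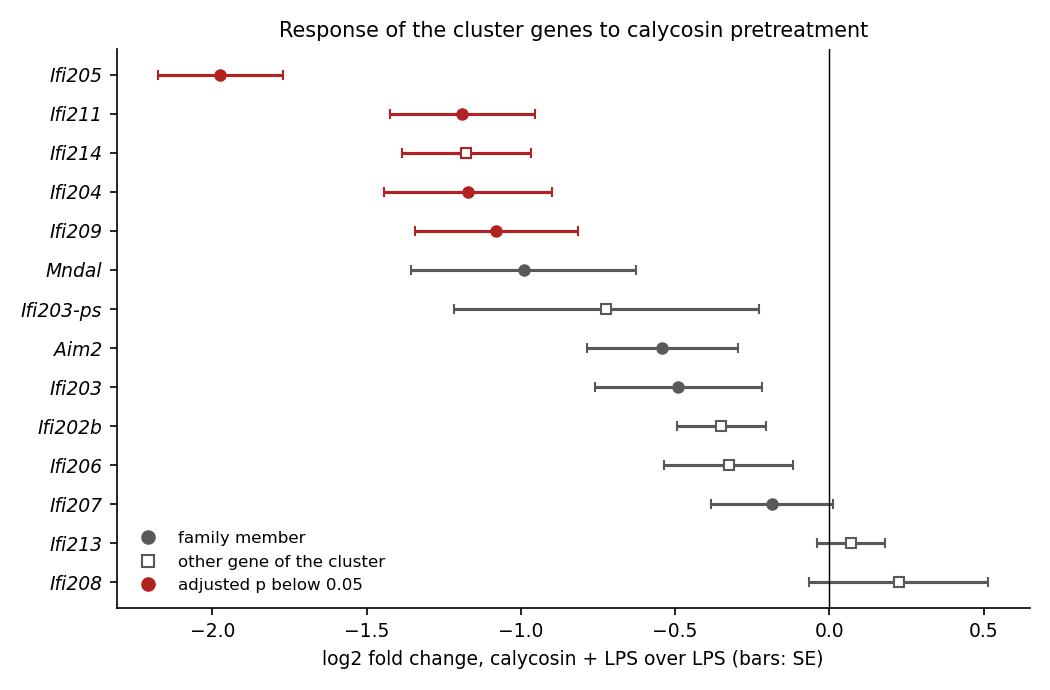
Log2 fold change of calycosin + LPS over LPS for the 8 members (circles) and 6 other cluster genes (squares), with bars for the SE of the fit of 9 libraries. Red marks an adjusted p below 0.05: Ifi205 lies lowest at -1.97, Ifi211, Ifi214, Ifi204 and Ifi209 lie between -1.19 and -1.08, and Ifi213 and Ifi208 lie just above 0.

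Among the 6 other cluster genes 1 was called lower with calycosin and 0 higher. Of all genes tested, 12.9% were lower and 16.1% higher, so this count was near the share over all genes. Ifi214, which lies between Ifi206 and Ifi213, had 40.8, 34.2 and 43.5 CPM in calycosin + LPS cells, against 88.0, 86.2 and 93.6 CPM in LPS cells (log2 fold change -1.18, SE 0.21, adjusted p = 0.00307), without overlap. Ifi202b, a member with HIN domains and no pyrin domain, had a log2 fold change of -0.35 (adjusted p = 0.0956), the pseudogene Ifi203-ps -0.72 (adjusted p = 0.304) and Ifi206 -0.33 (adjusted p = 0.274). Ifi213 and Ifi208 had log2 fold changes of 0.07 and 0.23 (adjusted p = 0.674 and 0.595). In chromosomal order, Ifi209 (-1.08) lies between Ifi213 (0.07) and Ifi208 (0.23), and Ifi207 (-0.18) next to Ifi204 (-1.17); these differences between genes were not tested. Outside the cluster the nearest genes had few counts. Olfr418, Mptx2 and Ackr1 had 0 counts in all libraries, and Olfr433, on the Ifi205 side, had 22, 35 and 25 counts in calycosin + LPS cells, 18, 37 and 32 in LPS cells, and 0, 2 and 0 in vehicle cells. Olfr432 had at most 9 counts and Olfr430 at most 2 in any library.

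**Figure D4:**
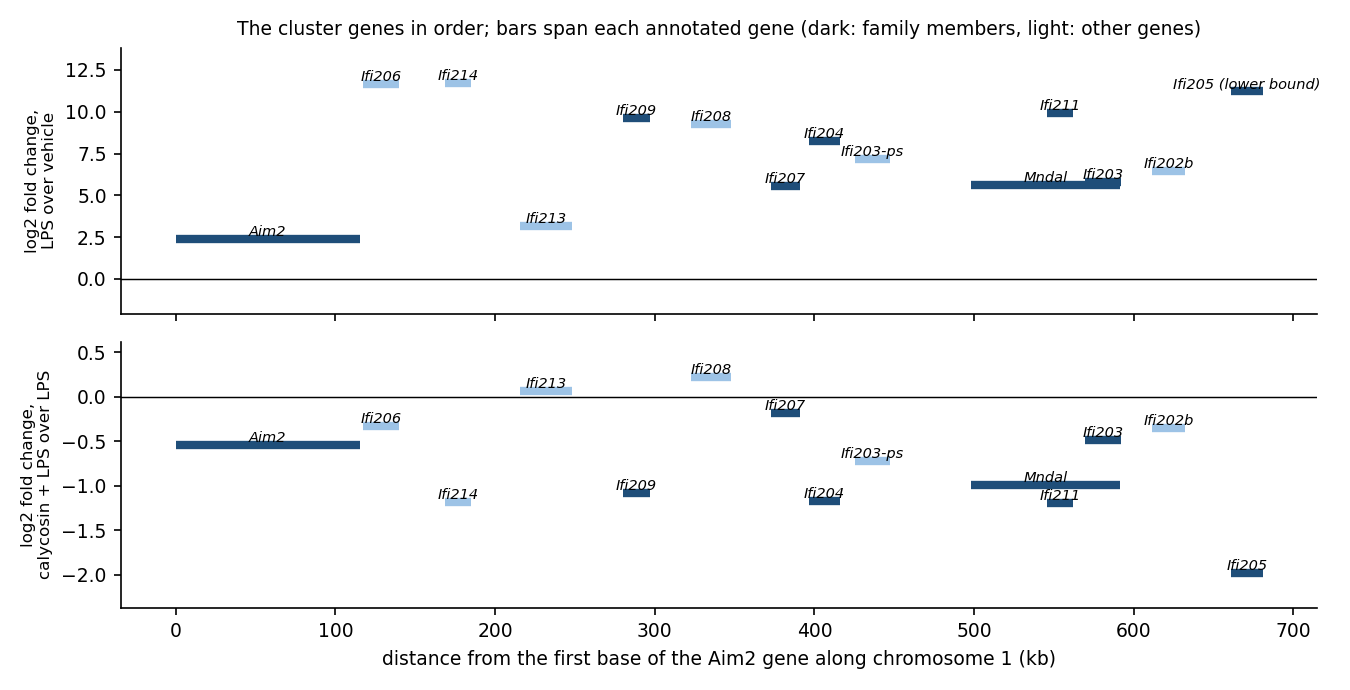
Log2 fold change of LPS over vehicle (top) and of calycosin + LPS over LPS (bottom) for the 14 cluster genes, against the distance along chromosome 1 from the first base of Aim2 in kb. Each bar spans the annotated gene, dark for members and light for other cluster genes. All 14 genes lie above 0 in the upper panel, where Ifi205 is drawn at its lower bound, and the lower panel shows neighbours at different heights, such as Ifi209 beside Ifi213 and Ifi208.

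Sequence shared between members limits how far single genes can be told apart, since how the authors' counter assigned reads that fit more than 1 gene is not given in the sources used here. In GENCODE M21 transcripts, 72.8% of the 50-base stretches of Ifi211 also occur in another gene. Of all Ifi211 stretches, 44.7% occur in Ifi205, whether or not other genes hold them too. For Ifi205, 18.6% of stretches occur elsewhere. For Ifi209 it was 33.8%, nearly all in Ifi214, and for Ifi204 20.0%, with 14.8% in Ifi211. For Mndal it was 19.6% and for Ifi203 12.2%. Ifi207 (7.29%) and Aim2 (0.628%) were close to unique. The falls of Ifi205, Ifi211 and Ifi204, and those of Ifi209 and Ifi214, are therefore uncertain as separate measurements.

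Compared with vehicle cells, calycosin + LPS cells still had higher levels of the whole family. All 8 members were higher and 0 lower, where 25.4% of genes tested were higher and 23.6% lower, with a median log2 fold change of 6.23 for the members and -0.0045 for all genes tested. The log2 fold change of calycosin + LPS over vehicle was 1.85 for Aim2 (SE 0.25, adjusted p = 0.00028), 5.33 for Ifi203, 7.10 for Ifi204, 5.37 for Ifi207, 8.57 for Ifi209, 8.74 for Ifi211 and 4.65 for Mndal. Ifi205 was at least 609-fold higher than in vehicle cells. The 3 comparisons share libraries, so their fold changes are set side by side and are not independent of each other.

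The genes that work beside AIM2 were looked at as a list of inflammasome, cGAS-STING and nuclease genes, 31 of which were tested. Of these, 20 were higher and 5 lower in LPS cells against vehicle cells (median log2 fold change 1.38), beside 27.3% and 28.9% of all genes tested. With calycosin + LPS against LPS, 1 was higher and 10 were lower (median -0.12), beside 16.1% and 12.9% of all genes tested. With calycosin + LPS against vehicle 18 were higher and 4 lower (median 1.40), beside 25.4% and 23.6%. On the TPM scale the 10 became 3, and without vehicle replicate 3 the 4 became 8. The counts over all genes moved as well. Lower calls for calycosin + LPS against LPS were 286 to 300 on the TPM scale, against 1871 in the edgeR fit of 9 libraries. For calycosin + LPS against vehicle they were 4337 without vehicle replicate 3, against 3413 in that fit. Pycard, which encodes the ASC adaptor that links AIM2 to caspase-1, was nearly absent. It had 0, 8 and 2 counts in calycosin + LPS cells, 0, 0 and 6 in LPS cells, and 4, 2 and 2 in vehicle cells, too few to test; RAW 264.7 cells are known to lack ASC.

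Caspase-1 and gasdermin D transcripts were present. Casp1, the inflammatory caspase, had 118, 110.2 and 128 CPM in calycosin + LPS cells, 265, 272 and 310.1 CPM in LPS cells, and 30.4, 29.6 and 42.1 CPM in vehicle cells. The 3 groups did not overlap: Casp1 was 8.30-fold higher with LPS (adjusted p = 2.81e-07), and its log2 fold change with calycosin was -1.25 (SE 0.15, adjusted p = 0.000463). Gsdmd, the pore-forming substrate of caspase-1, had 62.7, 86.4 and 66.0 CPM in calycosin + LPS cells, 133, 122 and 138 CPM in LPS cells, and 75.2, 74.7 and 41.2 CPM in vehicle cells. It was 2.05-fold higher with LPS (adjusted p = 0.00315) and lower with calycosin (log2 fold change -0.87, adjusted p = 0.0172), which left it overlapping the vehicle range. On the TPM scale, without TMM, Gsdmd had 55.0, 102 and 52.1 TPM in calycosin + LPS cells, 97.1, 89.1 and 106 TPM in LPS cells, and 115, 114 and 36.6 TPM in vehicle cells. There the LPS range overlapped both others, and vehicle replicates 1 and 2 were above every LPS library, so the rise was not seen on that scale.

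Of the cytokines that caspase-1 matures, Il1b fell with calycosin and Il18 did not pass. Il1b had 0.251, 0.493 and 0.259 CPM in calycosin + LPS cells, 31.9, 35.0 and 38.8 CPM in LPS cells, and 0 counts in every vehicle library. It was at least 495.9-fold higher with LPS and 101-fold lower with calycosin (log2 fold change -6.66, SE 0.27, adjusted p = 2.62e-05), the largest fall in the list. Il18 had 69.0, 64.5 and 80.7 CPM in calycosin + LPS cells, 92.7, 97.1 and 116 CPM in LPS cells, and 3.67, 3.86 and 5.81 CPM in vehicle cells. It was 23.1-fold higher with LPS, and its change with calycosin did not pass (log2 fold change -0.52, adjusted p = 0.0556). Nlrp3, the sensor of another inflammasome, was 45.1-fold higher with LPS and had a log2 fold change of 0.14 with calycosin (adjusted p = 0.502).

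On the cGAS-STING side, Tmem173 (STING) had 30.8, 37.5 and 35.1 CPM in calycosin + LPS cells, 73.3, 69.6 and 76.1 CPM in LPS cells, and 28.2, 27.5 and 28.2 CPM in vehicle cells. It was 2.61-fold higher with LPS (adjusted p = 4.19e-06) and lower with calycosin (log2 fold change -1.08, SE 0.11, adjusted p = 0.00019). In TPM it had 20.7, 34.0 and 21.3 in calycosin + LPS cells, 41.2, 39.1 and 45.1 in LPS cells, and 33.1, 32.2 and 19.3 in vehicle cells, with the LPS libraries still above both other groups. Mb21d1 (cGAS, the enzyme that makes the ligand of STING) was 3.25-fold higher with LPS, and its log2 fold change with calycosin was -0.30 (adjusted p = 0.397). Irf7, a transcription factor downstream of these sensors, was 65.3-fold higher with LPS and lower with calycosin (log2 fold change -0.86, adjusted p = 0.00064). Samhd1, a nucleotide-depleting enzyme, was 11.4-fold higher with LPS and lower with calycosin (log2 fold change -1.12, adjusted p = 0.00125). Zbp1, a sensor of Z-form nucleic acids, was 716-fold higher with LPS and did not pass with calycosin (log2 fold change -0.23, adjusted p = 0.172). Tlr9, the endosomal receptor for CpG DNA, went the other way, with 40.5, 35.4 and 44.5 CPM in calycosin + LPS cells, against 11.5, 10.9 and 6.85 CPM in LPS cells (log2 fold change 2.04, adjusted p = 0.0013).

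**Figure D5:**
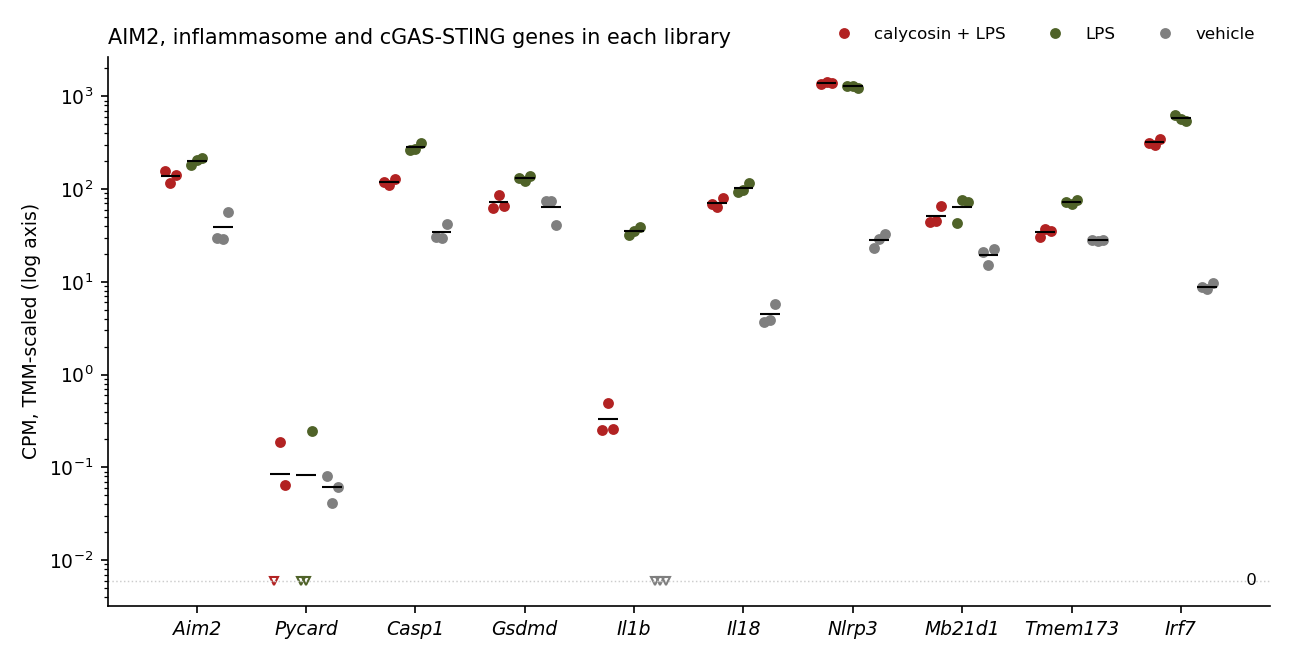
CPM of Aim2 and 9 inflammasome, cGAS-STING and interferon response genes in each library, on a log axis, for calycosin + LPS, LPS and vehicle cells (points: libraries, n = 3 per group; short lines: means; open triangles: a value of 0). Pycard stays below 0.25 CPM in all libraries, Il1b is far lower in calycosin + LPS than in LPS cells, and Casp1, Gsdmd, Tmem173 and Irf7 are lower in calycosin + LPS than in LPS cells.

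Of 18 interferon signalling genes tested, 16 were higher and 0 lower in LPS cells against vehicle cells (median log2 fold change 2.92), beside 27.3% and 28.9% of all genes tested. With calycosin + LPS against LPS, 3 were higher and 5 lower (median -0.06), beside 16.1% and 12.9%, so the count of higher genes was near the share over all genes. With calycosin + LPS against vehicle 17 were higher and 0 lower (median 1.97), beside 25.4% and 23.6%. On the TPM scale the 5 became 1 and the 17 became 10 or 11. Over all genes, lower calls for calycosin + LPS against LPS were 286 to 300 on that scale, against 1871 with edgeR. Higher calls for calycosin + LPS against vehicle were 1317 to 1412, against 3672. Ifnb1, the interferon made first after TLR4 is engaged, had 4.32, 6.43 and 5.67 CPM in calycosin + LPS cells, 5.05, 3.03 and 3.61 CPM in LPS cells, and 2, 0 and 0 counts in the vehicle libraries. The LPS-exposed groups overlapped, and their difference did not pass the test (log2 fold change 0.49, SE 0.32, adjusted p = 0.277). Irf9, the DNA-binding subunit of the interferon-stimulated factor, had 62.9, 77.2 and 67.4 CPM in calycosin + LPS cells, against 128, 124 and 118 CPM in LPS cells, and fell (log2 fold change -0.84, adjusted p = 0.000589). Irf1, a related factor, rose with calycosin (log2 fold change 0.80, adjusted p = 0.00205). Socs3, a feedback inhibitor of cytokine receptors, fell (log2 fold change -2.51, adjusted p = 5.94e-05), while its relative Socs1 rose (log2 fold change 1.01, adjusted p = 0.00344). Isg15, a ubiquitin-like interferon response product, was 81.5-fold higher with LPS and had a log2 fold change of -0.17 with calycosin (adjusted p = 0.592).

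For each member, the gene outside the family with the closest pattern was taken by the smallest root mean square difference of gene-centred log2 CPM over the 9 libraries, among 8806 candidates. The closest were Tank for Aim2 (difference 0.128), Trim30a for Ifi203 (0.154), Cd69 for Ifi204 (0.305), Slfn1 for Ifi205 (0.510), Igtp for Ifi207 (0.207), Gbp6 for both Ifi209 (0.0896) and Ifi211 (0.234), and Ifi44 for Mndal (0.210). Gbp6, a guanylate-binding protein, had a log2 fold change of 10.19 for LPS over vehicle and -0.98 for calycosin + LPS over LPS, beside 9.65 and -1.08 for Ifi209. Tank, an adaptor of TRAF proteins, had 2.41 and -0.48, beside 2.39 and -0.54 for Aim2. These likenesses are descriptions over libraries that fall into 3 groups and share their depth and scaling.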

How the data were processed

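The authors deposited whole-number counts per gene for 9 poly(A) RNA libraries, with no normalisation found in the values, and TPM values, in a table with the column names of StringTie output, per the file headers. Per the submitters' processing notes, Trimmomatic 0.36, HISAT2 2.0 and StringTie 1.3.3b were used with genome build mm10; the sources used here name no read counter, annotation release, strandedness or rule for multiply mapped reads. Columns of the LPS group were matched to samples by the replicate number in the title. Genes were filtered with edgeR's filterByExpr, scaled by TMM (factors 0.786 to 1.42), and all 9 libraries were fitted with a term per group in edgeR 4.0.16 (R 4.3.3). Groups were compared with the two-sided quasi-likelihood F test, with Benjamini-Hochberg adjustment over 14458 genes and a threshold of 0.05. SE was derived from the test statistic. Each p-value judges a group difference against the spread between these cultures, estimated over all 9 libraries. TMM matters here: unscaled library totals shift the median gene by -0.70 (LPS over vehicle) and 0.30 (calycosin + LPS over LPS) on the log2 scale.

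A count of 0 was read as up to 3 counts per library (0.0602 to 0.137 CPM), which covers counting error only. No 2 libraries of a group agreed within sampling noise. The scripts were tested on simulated counts. All members, the other cluster genes, up to 4 called genes with the largest change per list and comparison, and Pycard, Casp1, Gsdmd, Il1b, Il18, Mb21d1, Tmem173 and Ifnb1 were named. The members, lists and motifs were chosen with earlier results of these data known. Alternatives were RLE scaling, DESeq2 1.42.0, no filter, limma 3.58.1 on log2(TPM + 1) or log2(TPM + 0.1), a replicate block, other sets of libraries, and, added after seeing the data, library totals and scaling without mitochondrial genes.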

Additional observations from a re-analysis of the deposited data

How the results depend on the processing

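All 8 members were called higher than vehicle, in both LPS and calycosin + LPS cells, under each of 17 alternatives. With calycosin + LPS against LPS, Ifi204, Ifi205 and Ifi211 were called lower in 17 of 17, Ifi209 in 15, Mndal in 4, Aim2 in 2, Ifi203 in 2 and Ifi207 in 1; the count of lower members was 3 to 4 with any 1 calycosin + LPS or LPS library left out, 7 with only the 2 groups and 8 with both libraries that stood apart left out. Lower calls over all genes rose too, from 1871 to 2391 with only the 2 groups and to 2670 with both libraries left out. Ifi207 turned to 0.12 with limma on TPM (adjusted p = 0.813 to 0.915) and 0.14 on library totals without TMM (adjusted p = 0.679). The replicate numbers did not pair the libraries (correlations of deviations -0.17 to 0.36); with a replicate block the lower members numbered 5, with Mndal added (log2 fold change -1.05, adjusted p = 0.0401), and no other member's call changed.

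The cause of these shifts and of those that follow was not tested. Among DNA-sensing genes, calycosin + LPS against LPS gave 2 higher on totals without TMM and 3 lower on TPM. LPS against vehicle gave 13 higher on unfiltered TPM and 9 lower on filtered TPM and on totals. Over all genes, that comparison gave 1503 higher of 25775 on unfiltered TPM, 6389 or 6432 lower of 12879 on filtered TPM, and 7744 lower of 14458 on totals. With TMM it gave 3954 higher and 4180 lower of 14458. Calycosin + LPS against vehicle gave 2 lower on unfiltered TPM, 8 on totals, 9 with both libraries left out, and 3 to 8 with any 1 calycosin + LPS or vehicle library left out, the 8 being without vehicle replicate 3. Among interferon genes, calycosin + LPS against LPS gave 1 higher on unfiltered TPM, and 1 lower on TPM and 3 on totals. Calycosin + LPS against vehicle gave 11 or 10 higher on TPM and 11 on totals, and LPS against vehicle 1 lower on filtered TPM and 2 on totals. Over all genes, calycosin + LPS against LPS split into 3418 higher and 710 lower on totals, against 2333 and 1871 with TMM. On TPM it gave 286 to 300 lower. Calycosin + LPS against vehicle split into 2034 higher and 5143 lower on totals, against 3672 and 3413 with TMM. That comparison gave 2794 lower on unfiltered TPM, 4404 with both libraries left out and 4337 without vehicle replicate 3. Depth limits the vehicle levels of Ifi205, Ifi206 and Ifi214, which had 3 or fewer counts per library.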
